A study of Rattus norvegicus with 18 samples.

Results

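Histone genes were followed in the liver of the rat from the end of gestation through the first week of life. They were taken as the transcript clusters (probe sets that cover a whole gene) whose only gene symbol in the platform annotation begins with a histone gene stem: H1f, H2ab, H2ac, H2aj, H2ap, H2ax, H2az, H2bc, H2bl, H2bu, H3c, H3f3, H4c or the older forms Hist1h to Hist4h. For a gene with several clusters the brightest was used. The rule found 50 clusters of 43 genes among the 18926 genes measured, and all 43 were tested, since no filter on low values was applied. By symbol, 27 of them are replication-dependent histones, 5 are somatic variants, 3 are copies related to histone H3.3, and 8 are histones of the testis or oocyte.

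The animals were Sprague Dawley rats with no genetic change or drug treatment named in the labels. Livers were taken on embryonic day 21 (E21), from fetuses delivered by C-section and killed before they breathed, and after birth from pups aged 30 min, 4 h, 12 h, 1 day or 7 days. Each age had 3 arrays from 3 dams, 18 in all, each hybridised with total RNA from frozen liver. The number and sex of the pups behind a sample were not given, and a whole liver at these ages holds blood-forming cells as well as hepatocytes. In such bulk tissue, fewer cells of a type and less RNA per cell cannot be told apart.

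Histones are the proteins around which DNA is wound: H2A, H2B, H3 and H4 form the core of the nucleosome, and H1 binds the linker DNA between nucleosomes. The replication-dependent genes lie in clusters, have no introns, and make mRNAs that end in a stem-loop in place of a poly(A) tail. Those mRNAs build up in S phase, when new DNA has to be packed, and are degraded when DNA synthesis ends. The variants (H2A.Z, H2A.X, H3.3, H2A.J, H1.10) are encoded by lone genes, are mostly polyadenylated and are made through the cell cycle, also in cells that do not divide. H2ax is between these kinds, since its mRNA is known in both forms. The labelling kit does not rely on a poly(A) tail, so both kinds of mRNA can be read on the array.

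The promoters were searched for 4 sequence motifs that were not part of the rule, and only CCAAT stood before nearly all replication-dependent genes. RefSeq promoters (GRCr8 build) were taken from 250 bases before to 50 after the first annotated gene start. They were matched by gene ID for 38 of the 43 genes, 23 of them replication-dependent. The letters CCAAT, on either strand, stood in 22 of these 23 promoters (95.7%) and in 37.7% of all 27457 promoters of the same length. TATAAA stood in 15 of 23 (65.2%) and in 14.3% of all. The octamer ATTTGCAT stood in 4 of the 8 H2B promoters and 4 of the 8 H2A promoters, against 1.64% of all. The H1 box AAACACA stood in 2 of the 3 H1 promoters, H1f4 and H1f5, against 6.96% of all. The letters also stood before other histone genes: among the 8 promoters of testis or oocyte histones, CCAAT stood in 7 and the H1 box in 5. A match of letters is a description and not a bound site. Shown here are the replication-dependent genes of families H1, H2A, H2B and H3 on which the results below turn, and then 2 variants. Capitals mark the motif letters on either strand, so the CCAAT and TATAAA letters and the octamer also appear as their reverse complements. None of the marked motifs overlap each other in these sequences.
H1f5 (H1, chr17:47421625-47421924, plus strand): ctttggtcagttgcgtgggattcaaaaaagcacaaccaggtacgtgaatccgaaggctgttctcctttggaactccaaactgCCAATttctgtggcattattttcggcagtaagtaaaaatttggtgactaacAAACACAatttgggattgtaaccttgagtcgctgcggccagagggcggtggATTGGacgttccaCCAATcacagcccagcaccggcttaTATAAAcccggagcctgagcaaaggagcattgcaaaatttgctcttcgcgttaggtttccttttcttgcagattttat
H2ac4 (H2A, chr17:47496078-47496377, minus strand): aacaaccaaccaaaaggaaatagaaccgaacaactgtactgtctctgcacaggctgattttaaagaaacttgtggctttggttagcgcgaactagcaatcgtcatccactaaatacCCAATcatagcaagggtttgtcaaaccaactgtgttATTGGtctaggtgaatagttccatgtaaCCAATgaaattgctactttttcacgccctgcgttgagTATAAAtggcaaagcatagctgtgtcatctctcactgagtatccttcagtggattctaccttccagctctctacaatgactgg
H2bc12 (H2B, chr17:47181891-47182190, minus strand): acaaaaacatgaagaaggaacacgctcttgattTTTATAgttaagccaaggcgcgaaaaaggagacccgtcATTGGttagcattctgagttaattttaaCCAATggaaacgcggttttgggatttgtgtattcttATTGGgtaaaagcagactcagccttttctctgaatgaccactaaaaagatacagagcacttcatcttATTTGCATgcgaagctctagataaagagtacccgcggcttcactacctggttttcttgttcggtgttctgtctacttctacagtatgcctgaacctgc
Hist2h3c2 (H3, chr2:186525912-186526211, plus strand): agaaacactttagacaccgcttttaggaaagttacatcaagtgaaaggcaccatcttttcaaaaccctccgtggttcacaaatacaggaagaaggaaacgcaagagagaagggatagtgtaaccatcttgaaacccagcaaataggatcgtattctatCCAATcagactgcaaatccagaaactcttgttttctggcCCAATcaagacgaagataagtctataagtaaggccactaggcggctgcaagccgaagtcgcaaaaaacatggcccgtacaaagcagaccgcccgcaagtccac
H3f3b (H3.3 variant, chr10:101757587-101757886, minus strand): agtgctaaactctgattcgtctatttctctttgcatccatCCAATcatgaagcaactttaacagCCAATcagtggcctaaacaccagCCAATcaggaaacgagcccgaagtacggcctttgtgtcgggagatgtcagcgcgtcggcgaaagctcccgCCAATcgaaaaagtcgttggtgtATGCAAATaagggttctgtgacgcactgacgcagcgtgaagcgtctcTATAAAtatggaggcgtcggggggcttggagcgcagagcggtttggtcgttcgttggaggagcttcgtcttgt
H2az1 (H2A.Z variant, chr2:229028845-229029144, plus strand): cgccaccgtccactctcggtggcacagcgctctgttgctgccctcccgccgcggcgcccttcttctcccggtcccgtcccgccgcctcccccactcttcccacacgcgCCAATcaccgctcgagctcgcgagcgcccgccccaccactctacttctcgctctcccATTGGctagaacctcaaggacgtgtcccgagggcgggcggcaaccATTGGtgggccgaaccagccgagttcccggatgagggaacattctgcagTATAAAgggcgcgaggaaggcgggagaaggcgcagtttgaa
H1f5 carried the H1 box, 3 CCAAT matches and TATAAA, and H2bc12 carried the octamer with 3 CCAAT matches. The somatic variants were not free of these letters: CCAAT stood in 4 of 5 and TATAAA in 3 of 5 of their promoters, and H3f3b held the octamer. The promoter of Hist1h4m, the only H4 gene matched, held none of the 4 motifs in this window.

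Values below are log2 of the deposited intensity, given for replicates 1, 2 and 3 in that order, and a change of 1 on this scale is a doubling. Each change is given with its standard error (SE) from limma, fitted over all 18 arrays with 3 per age, and with limma's p adjusted by Benjamini-Hochberg over all 18926 genes, with 0.05 as the threshold. Levels of different genes cannot be set against each other on an array. Germ cell genes, taken to be silent in liver, gave 180 readings between 2.96 and 6.38 with a median of 4.47, so a reading at or below 6.38 may be background. The scale ended at 19.93. Many histone genes are near-identical copies, probe sequences were not used here, and probes that read several copies were not told apart.

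At 7 days the replication-dependent histones were lower as a class. Against E21, 25 of the 27 genes fell and none rose, with a median log2 change of -1.37 and a range from -3.38 to -0.51. With readings below 6.38 set to that value, the median was -1.08. Over all genes, 10% were lower in this comparison, and the median change was 0.01. Against 1 day, 25 of 27 fell, with a median of -1.71 and a range from -3.55 to -0.64, where again 10% of all genes were lower. The 3 arrays of 7 days lay below the 3 of E21 for 26 of the 27 genes (17.0% of all genes), with H2ac18 as the exception. They lay below the 3 of 1 day for all 27 (16.4% of all genes). For 18 of 27 (66.7%) every 7-day array was below each of the 15 earlier arrays, which held for 7.37% of all genes. Across the 6 ages together, 23 of 27 passed limma's F test at an adjusted p of 0.05 (85.2%, against 31.3% of all genes).

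**Figure D1:**
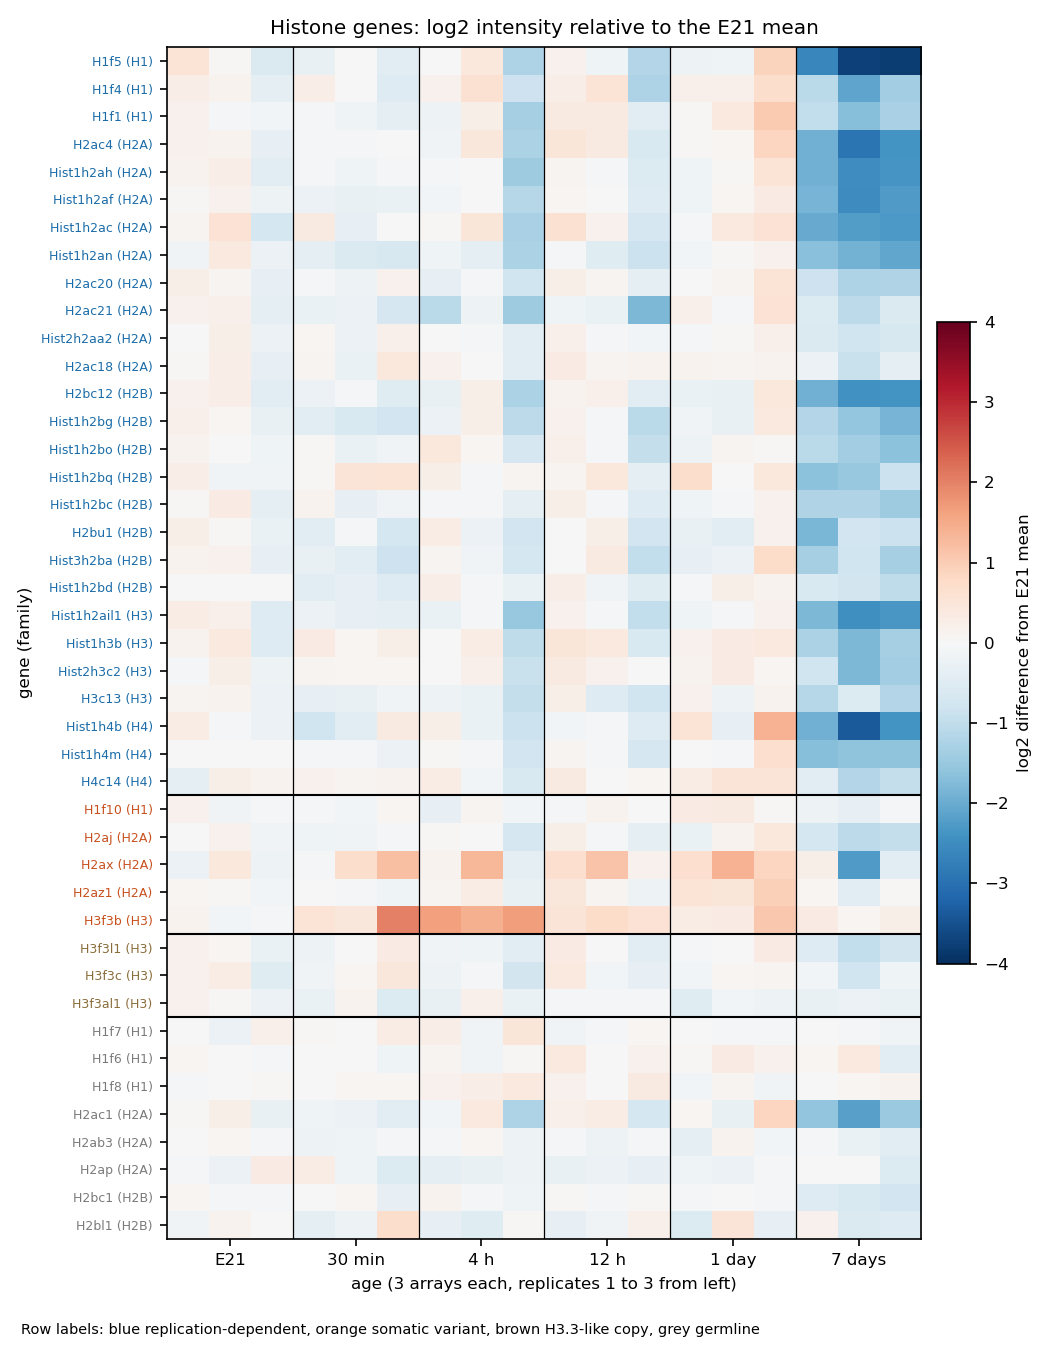
Each row is 1 of the 43 histone genes and each column 1 of the 18 arrays; colour gives the log2 intensity minus the gene's mean at E21, blue for lower and red for higher. The 7-day columns are blue for all 27 replication-dependent genes, the germline rows other than H2ac1 stay pale, and H3f3b is red at 4 h. Replicate 3 at 4 h is also blue in many of the upper rows.

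Among the linker histones, H1f5, which encodes H1.5, had the largest change of any histone gene. Its log2 intensity was 14.18, 13.68 and 13.08 at E21, 13.34, 13.64 and 13.18 at 30 min, 13.67, 14.07 and 12.40 at 4 h, 13.81, 13.47 and 12.46 at 12 h, 13.43, 13.49 and 14.54 at 1 day, and 11.04, 9.91 and 9.85 at 7 days. The 7-day arrays lay at least 1 log2 unit below every earlier array. H1f5 changed by -3.38 ± 0.47 (limma adjusted p = 0.00010) against E21, 10.4-fold lower, and by -3.55 ± 0.47 (limma adjusted p = 0.000102) against 1 day. H1f4, which encodes H1.4, read 16.82, 16.71 and 16.16 at E21, 16.82, 16.54 and 16.05 at 30 min, 16.72, 17.17 and 15.75 at 4 h, 16.83, 17.12 and 15.33 at 12 h, 16.77, 16.78 and 17.27 at 1 day, and 15.47, 14.45 and 15.16 at 7 days. Its 7-day arrays were below those of E21 and 1 day, but replicate 3 at 12 h was below the highest of them. H1f4 changed by -1.53 ± 0.43 (limma adjusted p = 0.0181) against E21 and by -1.91 ± 0.43 (limma adjusted p = 0.00608) against 1 day. The call against E21 was lost without E21 replicate 1 (adjusted p = 0.0671), E21 replicate 2 (adjusted p = 0.0586) or 7 days replicate 2 (adjusted p = 0.0900). H1f1 changed by -1.32 ± 0.34 (limma adjusted p = 0.0112) against E21, with all 3 arrays of 7 days at or below 6.38.

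In the H2A family 7 of 9 genes fell at 7 days against E21 (10% of all genes), with a median of -1.88. The brightest, Hist1h2af, read 17.13, 17.25 and 16.88 at E21, 16.85, 16.79 and 16.81 at 30 min, 16.98, 17.10 and 15.94 at 4 h, 17.15, 17.07 and 16.57 at 12 h, 16.91, 17.17 and 17.40 at 1 day, and 15.24, 14.56 and 14.83 at 7 days. All 3 of its 7-day arrays stood below the other 15. Hist1h2af changed by -2.21 ± 0.26 (limma adjusted p = 2.3e-05), 4.63-fold lower, against E21 and by -2.29 ± 0.26 (limma adjusted p = 3e-05) against 1 day. H2ac4, with the largest change of the family, gave 16, 15.97 and 15.50 at E21, 15.77, 15.78 and 15.81 at 30 min, 15.68, 16.27 and 14.56 at 4 h, 16.32, 16.17 and 15.21 at 12 h, 15.88, 15.91 and 16.69 at 1 day, and 13.89, 12.89 and 13.44 at 7 days. Here too the 7-day arrays did not overlap any other age. The change in H2ac4 was -2.42 ± 0.39 (limma adjusted p = 0.000336), 5.34-fold lower, against E21. For Hist1h2ah the values were 15.74, 15.86 and 15.18 at E21, 15.55, 15.41 and 15.53 at 30 min, 15.52, 15.58 and 14.17 at 4 h, 15.70, 15.54 and 15.06 at 12 h, 15.43, 15.65 and 16.14 at 1 day, and 13.67, 13.10 and 13.22 at 7 days. Replicate 3 at 4 h was the lowest of its earlier arrays and still above all of 7 days. Hist1h2ah changed by -2.26 ± 0.32 (limma adjusted p = 0.000114) against E21, and its dimmer cluster, not used, fell by 2.14.

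Hist1h2an read 9.17, 9.70 and 9.10 at E21, 8.93, 8.74 and 8.67 at 30 min, 9.16, 8.96 and 8.07 at 4 h, 9.27, 8.83 and 8.46 at 12 h, 9.20, 9.36 and 9.50 at 1 day, and 7.65, 7.44 and 7.24 at 7 days. Its 3 arrays at 7 days were the lowest of the 18, and it changed by -1.88 ± 0.26 (limma adjusted p = 8e-05) against E21. Of the other H2A genes, Hist1h2ac changed by -2.18 ± 0.42 (limma adjusted p = 0.00140), H2ac20 by -1.08 ± 0.22 (limma adjusted p = 0.00238) and Hist2h2aa2 by -0.66 ± 0.16 (limma adjusted p = 0.00665) against E21. The 2 genes that did not pass were H2ac18, at -0.51 ± 0.21 (limma adjusted p = 0.0946), and H2ac21, at -0.73 ± 0.38 (limma adjusted p = 0.205). Against 1 day H2ac18 passed, at -0.64 ± 0.21 (limma adjusted p = 0.0427), and H2ac21 did not, at -0.95 ± 0.38 (limma adjusted p = 0.0993).

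All 8 H2B genes were called lower at 7 days against E21 (10% of all genes), with a median of -1.30. In 6 of them, however, every 7-day reading was at or below 6.38. With readings below 6.38 set to that value, the H2B median was -0.28. Hist1h2bq, the brightest, read 15.57, 15.15 and 15.15 at E21, 15.35, 15.79 and 15.83 at 30 min, 15.53, 15.24 and 15.41 at 4 h, 15.39, 15.71 and 14.94 at 12 h, 16, 15.27 and 15.70 at 1 day, and 13.65, 13.78 and 14.42 at 7 days. It was lowest at 7 days on all 3 arrays. Hist1h2bq changed by -1.34 ± 0.24 (limma adjusted p = 0.000800), 2.53-fold lower, and a dimmer cluster of the same gene fell by 1.41. H2bc12, with the largest change, read 6.99, 7.10 and 6.38 at E21, 6.58, 6.73 and 6.34 at 30 min, 6.54, 7.06 and 5.55 at 4 h, 6.97, 7.02 and 6.37 at 12 h, 6.57, 6.53 and 7.24 at 1 day, and 4.89, 4.39 and 4.43 at 7 days. No 7-day array reached the lowest earlier one, replicate 3 at 4 h. H2bc12 changed by -2.25 ± 0.32 (limma adjusted p = 0.000132) against E21, but its 7-day readings were in the range of the germ cell genes, and with readings below 6.38 set to that value the change was -0.44. Hist1h2bc read 6.12, 6.40 and 5.72 at E21, 6.21, 5.75 and 5.95 at 30 min, 6.04, 5.99 and 5.69 at 4 h, 6.30, 6.03 and 5.56 at 12 h, 5.90, 6.04 and 6.25 at 1 day, and 4.88, 4.89 and 4.67 at 7 days. The 7-day arrays were again the lowest, and it changed by -1.26 ± 0.20 (limma adjusted p = 0.000245) against E21, although 17 of its 18 readings were at or below 6.38. The other H2B genes changed by between -1.53 (Hist1h2bg) and -0.79 (Hist1h2bd) against E21. H2bu1 read at or below 6.38 on all 18 arrays and did not pass against 1 day, at -0.96 ± 0.33 (limma adjusted p = 0.0532). Above that limit at 7 days were Hist1h2bq, on all 3 arrays, and Hist1h2bo, on 1 of 3, which changed by -1.37 ± 0.28 (limma adjusted p = 0.00217) against E21.

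The 4 H3 genes and the 3 H4 genes all fell in both comparisons, in each of which 10% of all genes were lower. Their medians against E21 were -1.41 and -1.64. Hist2h3c2 read 19.22, 19.50 and 19.07 at E21, 19.37, 19.34 and 19.34 at 30 min, 19.28, 19.47 and 18.37 at 4 h, 19.62, 19.44 and 19.29 at 12 h, 19.39, 19.60 and 19.35 at 1 day, and 18.46, 17.46 and 17.87 at 7 days. Its 7-day arrays were below those of E21 and 1 day, while replicate 3 at 4 h fell among them. The change in Hist2h3c2 was -1.34 ± 0.26 (limma adjusted p = 0.00132) against E21, and its readings before 7 days, up to 19.62, were close to the top of the scale. Hist1h2ail1, with the largest change, read 12.35, 12.26 and 11.55 at E21, 11.82, 11.74 and 11.66 at 30 min, 11.79, 12.02 and 10.54 at 4 h, 12.24, 11.99 and 11.07 at 12 h, 11.89, 12.02 and 12.24 at 1 day, and 10.27, 9.61 and 9.71 at 7 days. Its 7-day arrays were below every other array, and it changed by -2.19 ± 0.36 (limma adjusted p = 0.000363) against E21. Its symbol is that of an H2A gene, but RefSeq lists the synonym H3 histone and the coding start in its RefSeq promoter window gives the same residues as that of Hist2h3c2, so it was counted as H3. Hist1h3b changed by -1.48 ± 0.33 (limma adjusted p = 0.00422) and H3c13 by -0.96 ± 0.25 (limma adjusted p = 0.0116), and with readings below 6.38 set to that value these changes were -0.04 and -0.54.

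Of the H4 genes, Hist1h4m read 18.48, 18.53 and 18.52 at E21, 18.43, 18.42 and 18.28 at 30 min, 18.57, 18.45 and 17.73 at 4 h, 18.62, 18.43 and 17.85 at 12 h, 18.49, 18.43 and 19.17 at 1 day, and 16.81, 16.89 and 16.91 at 7 days. The 7-day arrays were the lowest of the 18 and close to each other. Hist1h4m changed by -1.64 ± 0.23 (limma adjusted p = 0.000107), 3.12-fold lower, against E21, and its dimmer cluster fell by 1.98. Hist1h4b read 15.89, 15.56 and 15.37 at E21, 14.82, 15.19 and 15.96 at 30 min, 15.84, 15.35 and 14.75 at 4 h, 15.51, 15.55 and 15.09 at 12 h, 16.15, 15.27 and 17.00 at 1 day, and 13.67, 12.26 and 13.23 at 7 days. Its 7-day arrays were all below the other 15, with a wider spread than those of Hist1h4m. Hist1h4b changed by -2.55 ± 0.43 (limma adjusted p = 0.000502), but the cluster used carries no gene ID, and its identifier has the prefix of another chromosome than those of the other clusters with this symbol. Whether it reads Hist1h4b is therefore not settled, and the 2 dimmer clusters with its symbol fell by 1.15 and 1.11. H4c14 changed by -0.85 ± 0.22 (limma adjusted p = 0.0121).

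**Figure D2:**
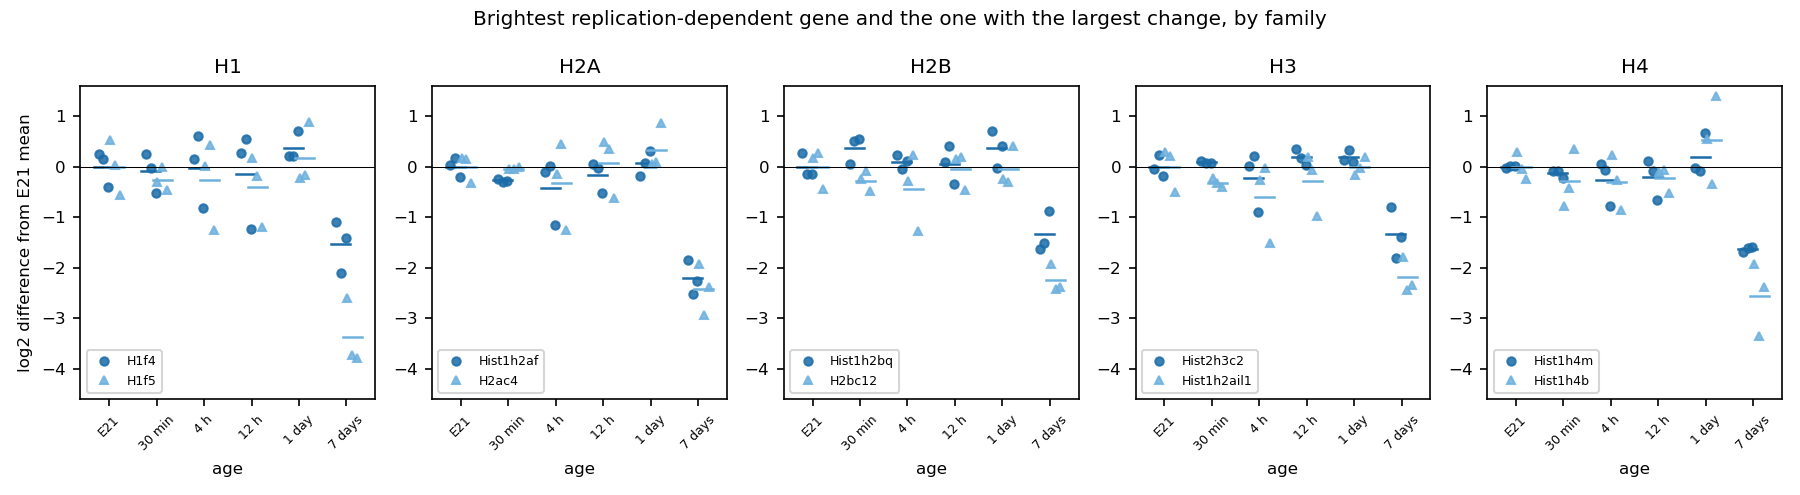
For each histone family, the replication-dependent gene with the brightest cluster (dark circles) and the one with the largest change at 7 days (light triangles) are plotted as log2 intensity minus the E21 mean, 1 point per array, with bars at the mean of 3. Points of the 5 earlier ages lie around 0, and the 7-day points lie lower in each panel, down to a mean of -3.38 for H1f5; the 7-day readings of H2bc12 were at or below 6.38, and whether the cluster of Hist1h4b reads that gene is not settled.

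The genes were grouped by chromosome on the GRCr8 assembly. On chromosome 17, which holds the main histone cluster, 17 of 17 genes fell at 7 days against E21 (10% of all genes), with a median log2 change of -1.64. For H1f1, H2bc12, Hist1h2bc, Hist1h2bd, Hist1h2bg and H3c13 among them, every 7-day reading was at or below 6.38. With readings below 6.38 set to that value, the changes of these genes ran from -0.67 (H1f1) to -0.01 (Hist1h2bc). On chromosome 2, 3 of 5 fell, with a median of -0.85 and a range from -1.34 (Hist2h3c2) to -0.51 (H2ac18). On chromosome 10 both genes, H2bu1 and Hist3h2ba, were called lower, each with a change of -1.16, but all of their 7-day readings were at or below 6.38, and with readings below 6.38 set to that value the changes were 0.00 and -0.38. The difference between chromosomes was not tested, and 3 genes (Hist2h2aa2, Hist1h3b and Hist1h4b) were not placed.

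The dim clusters were also counted apart. Among the 21 genes whose mean over all arrays was above 6.38, 19 fell at 7 days against E21 (10% of all genes), with a median of -1.37. The other 6 all fell, but at these low readings the size of a change is uncertain. In all, 9 of the 27 genes had every 7-day reading at or below 6.38.

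From birth to 1 day no change in a replication-dependent histone passed the test. Against E21 the class medians were -0.14 at 30 min, -0.26 at 4 h, -0.14 at 12 h and 0.15 at 1 day, and limma called 0 of 27 genes at each of these ages. Over all genes limma called 0.0%, 4.71%, 5.94% and 5.08% in the same comparisons. At an unadjusted p of 0.05 the counts were 1, 2, 0 and 0 of 27. Between neighbouring ages limma also called 0 of 27 from 30 min to 4 h, from 4 h to 12 h and from 12 h to 1 day (0.983%, 8.90% and 0.037% of all genes), with 1, 0 and 1 of 27 at an unadjusted p of 0.05. No other setting or left-out array gave a call in any of these comparisons. A miss of the threshold does not show that the levels stayed the same.

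One array weighed on the 4 h values. The median over the 27 genes, relative to the E21 mean, was 0.02, -0.04 and -0.90 on the 3 arrays of 4 h. Replicate 3 at 4 h was the lowest of the 15 arrays before 7 days for 19 of the 27 genes. Over all genes it was the lowest of these arrays for 1455 of 18926. Replicate 3 at 12 h was also low, at -0.61 beside 0.20 and -0.02. The same 2 arrays were low in the erythroid genes, at -0.95 and -0.47, and in the mitosis genes, at -0.76 and -0.43. The part of these genes in the histone readings was not tested.

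The somatic variants differed among themselves, and 1 of 5 fell at 7 days against E21 (10% of all genes), with a median of -0.19. H2aj, which encodes H2A.J, read 7.67, 7.85 and 7.56 at E21, 7.53, 7.54 and 7.62 at 30 min, 7.74, 7.71 and 7.01 at 4 h, 7.93, 7.64 and 7.34 at 12 h, 7.44, 7.83 and 8.10 at 1 day, and 6.98, 6.66 and 6.73 at 7 days. All 3 of its 7-day arrays were below the other 15. H2aj changed by -0.91 ± 0.20 (limma adjusted p = 0.00422) against E21 and by -1.0 ± 0.20 (limma adjusted p = 0.00268) against 1 day, and its dimmer cluster by -0.45 and -0.47. H2az1, which encodes the H2A.Z found at active promoters, read 11.22, 11.18 and 11.04 at E21, 11.13, 11.08 and 10.99 at 30 min, 11.25, 11.45 and 10.84 at 4 h, 11.61, 11.26 and 10.95 at 12 h, 11.69, 11.63 and 12.11 at 1 day, and 11.21, 10.74 and 11.20 at 7 days. It was highest at 1 day, where each array was above all of E21, and at 7 days it overlapped E21. H2az1 differed from E21 by 0.66 ± 0.19 (limma adjusted p = 0.0578) at 1 day and by -0.10 ± 0.19 (limma adjusted p = 0.808) at 7 days, neither past the threshold, and it fell from 1 day to 7 days (-0.76 ± 0.19 (limma adjusted p = 0.0108)). That last call was lost without 1 day replicate 3 (adjusted p = 0.0586) or 7 days replicate 2 (adjusted p = 0.0656).

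H2ax, whose protein is phosphorylated at DNA breaks, read 13.94, 14.58 and 13.97 at E21, 14.08, 14.87 and 15.37 at 30 min, 14.29, 15.48 and 13.76 at 4 h, 14.84, 15.29 and 14.34 at 12 h, 14.84, 15.55 and 15.02 at 1 day, and 14.41, 11.91 and 13.71 at 7 days. Its arrays scattered within ages, most of all at 7 days, and 7 days overlapped E21 but not 1 day. H2ax differed by -0.82 ± 0.55 (limma adjusted p = 0.349) from E21 and by -1.80 ± 0.55 (limma adjusted p = 0.0325) from 1 day. Without 7 days replicate 2 the latter became -1.08 (adjusted p = 0.172), and the call was also lost without 1 day replicate 2 (adjusted p = 0.103) or 1 day replicate 3 (adjusted p = 0.0685). H1f10, a linker histone variant, read 5.33, 5.03 and 5.11 at E21, 5.09, 5.05 and 5.24 at 30 min, 4.83, 5.26 and 5.04 at 4 h, 5.07, 5.31 and 5.14 at 12 h, 5.47, 5.53 and 5.20 at 1 day, and 4.95, 4.84 and 5.11 at 7 days. All 18 readings were in the range of the germ cell genes. H1f10 differed from E21 by -0.19 ± 0.13 (limma adjusted p = 0.360) and from 1 day by -0.44 ± 0.13 (limma adjusted p = 0.0291), a call lost without any 1 of 4 arrays (1 day replicates 1 and 2, 7 days replicates 1 and 2; adjusted p up to 0.124).

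H3f3b, 1 of the genes for H3.3, the H3 that is deposited outside S phase, was the only somatic variant that passed the test within the first day. Its log2 intensity was 8.15, 7.88 and 7.96 at E21, 8.54, 8.46 and 10.01 at 30 min, 9.65, 9.42 and 9.68 at 4 h, 8.50, 8.73 and 8.59 at 12 h, 8.30, 8.32 and 9.09 at 1 day, and 8.31, 8.09 and 8.22 at 7 days. All arrays of 4 h were above all arrays of E21, 12 h, 1 day and 7 days, and replicate 3 at 30 min stood above the other 2 of its age and above those of 4 h. H3f3b rose at 4 h against E21 by 1.59 ± 0.31 (limma adjusted p = 0.00935), 3.00-fold, where 2.91% of all genes were higher. At 30 min it differed from E21 by 1.01 ± 0.31 (limma adjusted p = 0.447), and from 4 h to 12 h by -0.97 ± 0.31 (limma adjusted p = 0.0652). At 7 days it differed from E21 by 0.21 ± 0.31 (limma adjusted p = 0.724). A separate cluster that carries the symbols of both H3.3 genes, H3f3b and H3f3a, showed no such rise, with a change of -0.20 ± 0.15 at 4 h (limma adjusted p = 0.572, n = 3 per age).

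**Figure D3:**
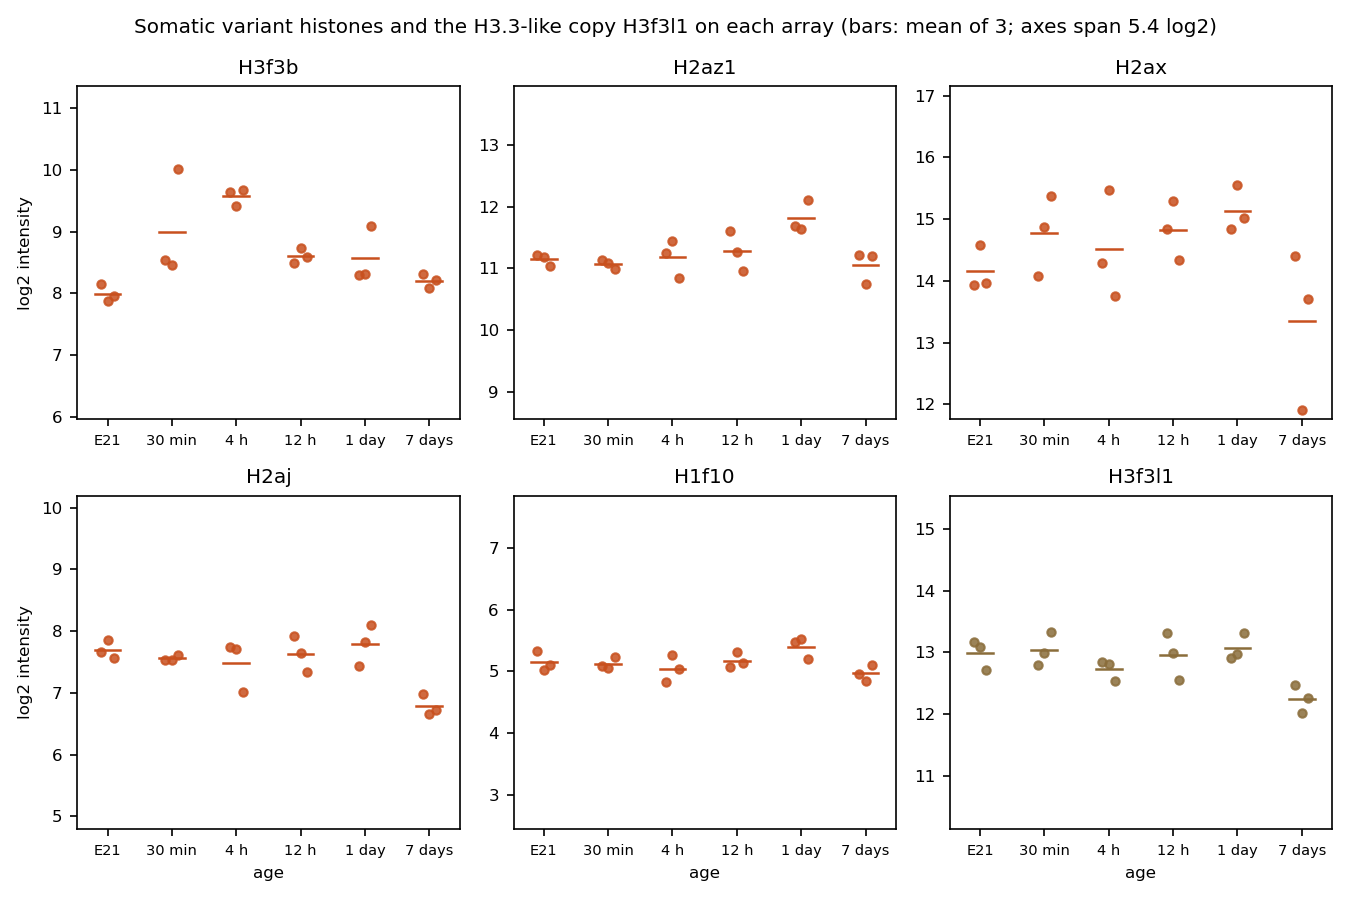
Log2 intensity of the 5 somatic variants (orange) and of the H3.3-like copy H3f3l1 (brown) by age, 1 point per array with bars at the mean of 3; every panel spans the same number of log2 units. H3f3b is highest at 4 h, at 9.42 to 9.68, H2az1 at 1 day, and the 7-day points of H2ax spread from 11.91 to 14.41.

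The 2 classes were set side by side at each age without a test of their difference, since they were drawn up with results of these data known. At 7 days against E21, 25 of 27 replication-dependent genes and 1 of 5 somatic variants fell (10% of all genes), with medians of -1.37 and -0.19. With readings below 6.38 set to that value, these medians were -1.08 and -0.1. The variant H1f10 read at or below 6.38 on all 18 arrays, so a fall in it could be missed. Variant clusters with several symbols, not counted here, also fell: H3f3b with H3f3a by -0.73 ± 0.15 and H2az2 with H2az2l3 by -0.54 ± 0.13. Against 1 day the counts were 25 of 27 and 4 of 5 (10% of all genes), with medians of -1.71 and -0.76. The count of 4 variants became 2 without 1 day replicate 2 or 1 day replicate 3 and 1 without 7 days replicate 2. At 1 day all 5 variants and 21 of 27 replication-dependent genes were above E21 in sign, with medians of 0.57 and 0.15, and none of the 32 passed. Over all genes, 9671 of 18926 were above E21 in sign at 1 day, and 5.08% passed. In the F test over ages 3 of 5 variants passed (H2aj, H2az1 and H3f3b), against 31.3% of all genes. Both comparisons at 7 days share the 7-day arrays, so their counts are not independent.

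**Figure D4:**
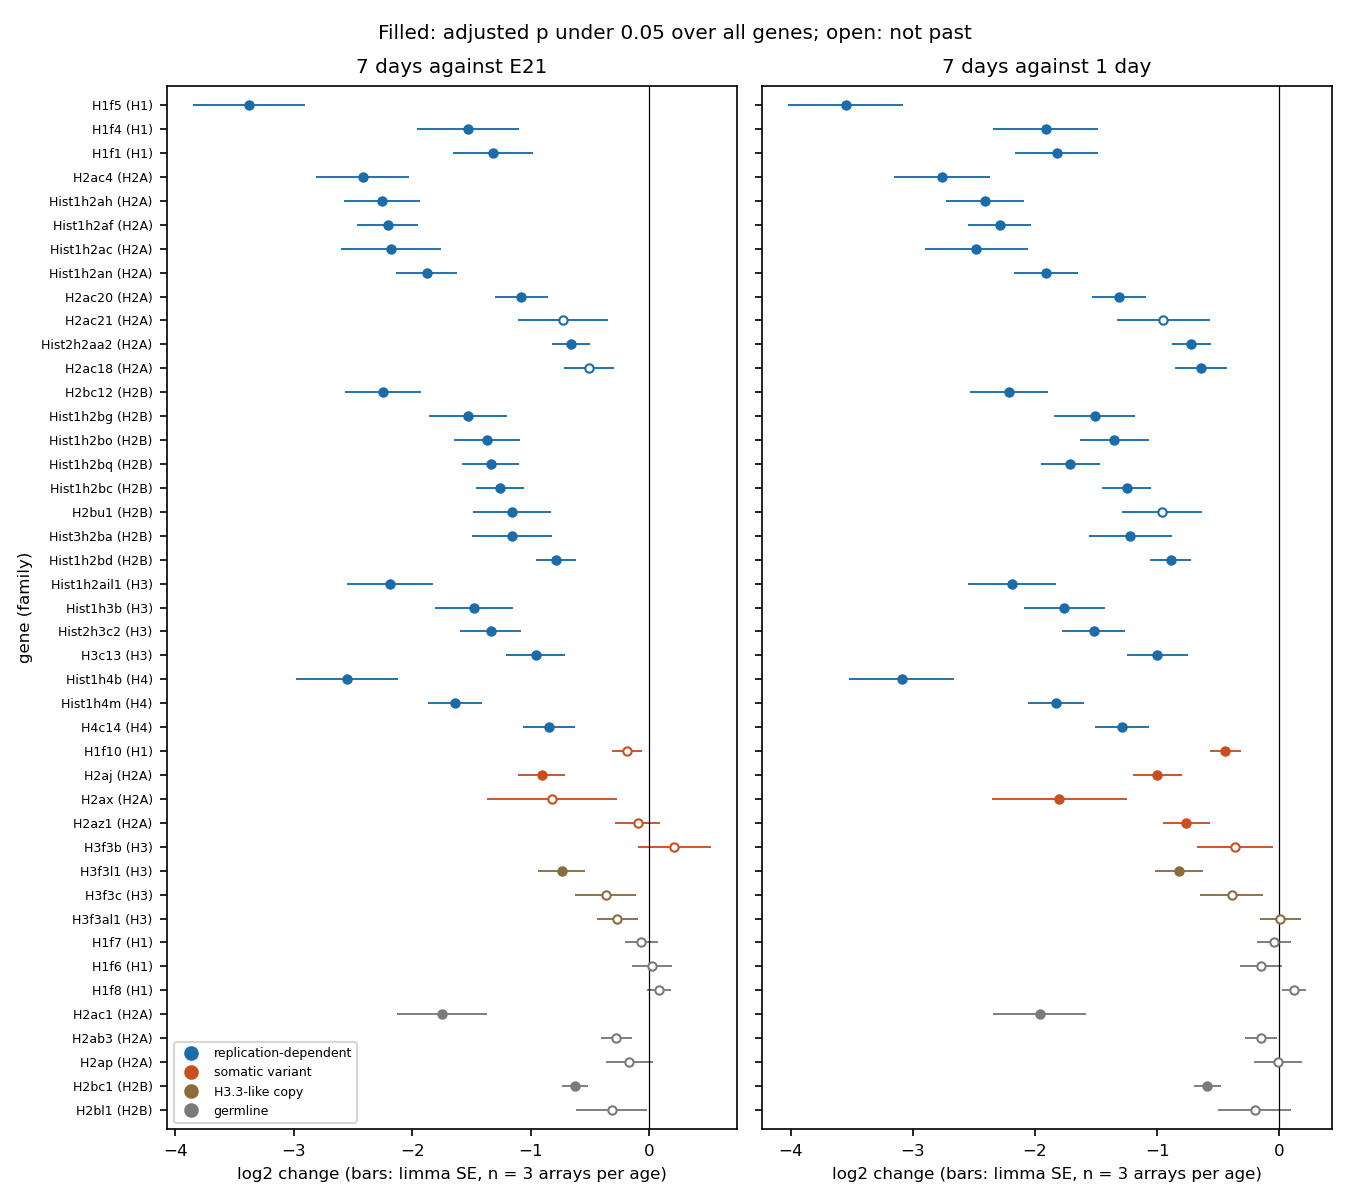
Log2 change of each of the 43 histone genes at 7 days against E21 (left) and against 1 day (right), with the limma SE as bars (3 arrays per age). Filled points have an adjusted p under 0.05 over all genes. All 27 replication-dependent genes (blue) lie left of 0 in both panels, and the variants (orange) lie between -0.91 and 0.21 on the left and between -1.80 and -0.36 on the right.

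Of the 3 copies related to H3.3, H3f3l1 changed by -0.74 ± 0.20 (limma adjusted p = 0.0140) at 7 days against E21, a call lost without 7 days replicate 2 (adjusted p = 0.0705), E21 replicate 1 (adjusted p = 0.0625) or E21 replicate 2 (adjusted p = 0.0510). Against 1 day it changed by -0.82 ± 0.20 (limma adjusted p = 0.00954), and that call was lost without 7 days replicate 2 (adjusted p = 0.0539). H3f3c, annotated as a pseudogene, differed from E21 by -0.37 ± 0.26 (limma adjusted p = 0.384), and H3f3al1 stayed in the germ cell range on all 18 arrays.

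Among the 8 germline histones, 6 (H1f6, H1f7, H1f8, H2ab3, H2ap and H2bl1) read no higher than 6.38 on any array and passed no comparison. The other 2, H2ac1 and H2bc1, are a head-to-head pair with 240 bases between their starts on GRCr8. H2ac1 ran from 9.35 to 11.42 before 7 days and from 8.39 to 9.07 at 7 days, without overlap. It changed by -1.75 ± 0.38 (limma adjusted p = 0.00327) against E21. H2bc1 changed by -0.63 ± 0.11 (limma adjusted p = 0.000746), all of its readings being at or below 6.38. The 10 germ cell markers are the genes taken as silent above, with a median change of -0.04 and sums of 311 to 329 at E21 and 289 to 328 at 7 days. Whether the probes of H2ac1 read other H2A genes was not tested.

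Of 18 measured genes that make, process or degrade histone mRNA, 6 fell and 0 rose at 7 days against E21 (10% and 12.8% of all genes), with a median log2 change of -0.20. Against 1 day 9 fell and 1 rose (10% and 8.15% of all genes), with a median of -0.39. Slbp, whose protein binds the stem-loop of histone mRNA, read 10.12, 10.20 and 10.02 at E21, 9.82, 10.03 and 10 at 30 min, 9.73, 10.14 and 9.18 at 4 h, 10.51, 10.19 and 9.88 at 12 h, 10.35, 10.28 and 10.84 at 1 day, and 9.21, 8.72 and 8.87 at 7 days. Its arrays at 7 days lay below all others but replicate 3 at 4 h, which was just under the highest of them. Slbp changed by -1.18 ± 0.22 (limma adjusted p = 0.00115) against E21. Npat, the S-phase coactivator of histone transcription, read 8.71, 8.50 and 8.37 at E21, 8.66, 8.73 and 8.72 at 30 min, 9.03, 9.34 and 8.88 at 4 h, 8.88, 8.84 and 8.76 at 12 h, 8.95, 8.74 and 8.98 at 1 day, and 8.40, 8.19 and 8.36 at 7 days. At 4 h all its arrays were above those of E21, and at 7 days it overlapped E21 and was below 1 day. Npat rose at 4 h against E21, by 0.55 ± 0.12 (limma adjusted p = 0.0172), the 1 gene of this list to pass there. At 7 days it differed by -0.21 ± 0.12 (limma adjusted p = 0.254) from E21 and by -0.57 ± 0.12 (limma adjusted p = 0.00354) from 1 day. Tut7, an enzyme that adds uridines to RNA, was the 1 gene that rose against 1 day (0.71 ± 0.18 (limma adjusted p = 0.0113)).

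Of 22 histone chaperones measured, which carry histones to and from DNA, 10 fell and 1 rose at 7 days against E21 (10% and 12.8% of all genes), with a median of -0.39. Anp32e, which removes H2A.Z from chromatin, changed by -1.40 ± 0.20 (limma adjusted p = 0.000114), and Hjurp, the chaperone of the centromeric H3 variant, by -1.14 ± 0.21 (limma adjusted p = 0.000982). Rbbp7 changed by -1.40 ± 0.35 (limma adjusted p = 0.00896) against E21, but by only -0.14 ± 0.35 (limma adjusted p = 0.862) against 1 day. Mcm2, which is also counted among the S phase genes below, changed by -1.12 ± 0.23 (limma adjusted p = 0.00214) against E21. Asf1b, which hands on H3 and H4, changed by -0.78 ± 0.26 (limma adjusted p = 0.0396). Hira, which deposits H3.3, changed by -0.52 ± 0.12 (limma adjusted p = 0.00452). Ubn1, a partner of Hira, was the 1 that rose (0.61 ± 0.15 (limma adjusted p = 0.00846)). Of 3 variants outside the symbol rule, Cenpa, the centromeric H3, differed by -0.56 ± 0.28 (limma adjusted p = 0.177) from E21 and fell against 1 day (-1.33 ± 0.28 (limma adjusted p = 0.00333)), while Macroh2a1 and Macroh2a2 passed neither comparison.

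Genes of the cell cycle moved with the replication-dependent histones at 7 days. Of 37 S phase genes, 20 fell and 1 rose against E21 (10% and 12.8% of all genes), with a median of -0.66. Against 1 day 29 of them fell (10% of all genes), with a median of -1.33. Of 24 mitosis genes, 17 fell against E21, with a median of -1.17, and all 24 against 1 day, with a median of -1.76. Pcna, the sliding clamp of the replication fork, changed by -1.14 ± 0.26 (limma adjusted p = 0.00479) against E21, and Mki67, a marker of dividing cells, by -2.37 ± 0.28 (limma adjusted p = 2.2e-05). At 1 day 4 S phase genes and 2 mitosis genes rose against E21, with medians of 0.54 and 0.61 (3.37% of all genes were higher), where 0 of the 27 histone genes passed and their median was 0.15.

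**Figure D5:**
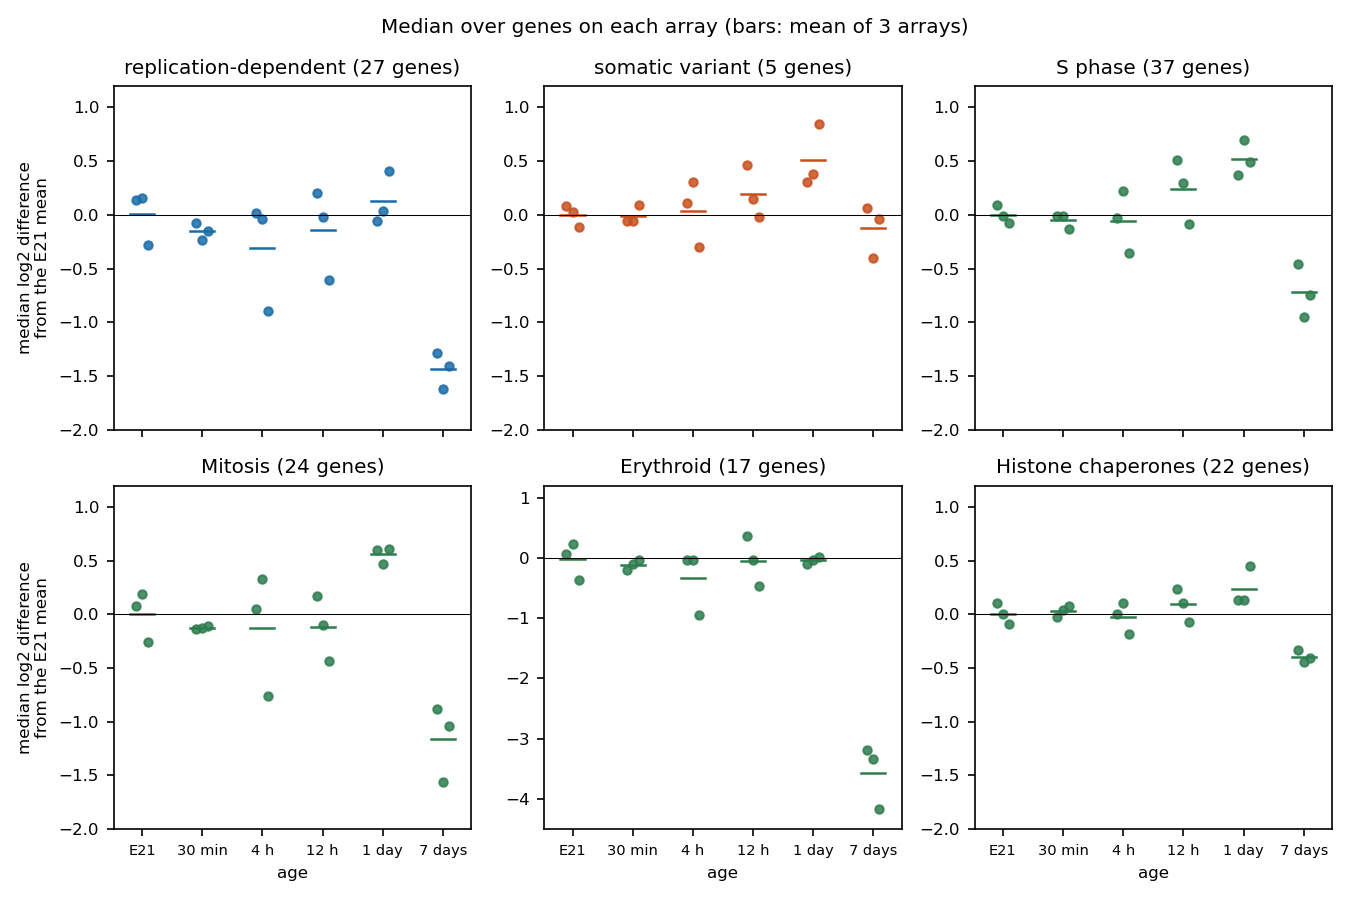
Median log2 difference from the E21 mean over the genes of 6 lists on each array, with bars at the mean of 3 arrays; the erythroid panel has a wider axis. The replication-dependent median lies at -1.62 to -1.29 at 7 days and the erythroid median at -4.17 to -3.19, while the S phase and mitosis medians are above 0 on all 3 arrays of 1 day.

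Markers of other cell types moved between E21 and 7 days as well. Of 17 erythroid genes, 16 fell at 7 days against E21 (10% of all genes), with a median of -3.45, and none rose. Hba-a1 was at or near the top of the scale on all 18 arrays and Hbb-b1 before 7 days, so changes in them are not fully measured. The other 15 had a median of -4.34, and their summed intensity, which adds up different probe sets, went from between 277735 and 459206 at E21 to between 19112 and 36041 at 7 days. Neutrophil genes fell in 8 of 10 (median -2.63, sums of 78461 to 199955 and then 15914 to 49663) and platelet genes in 8 of 8 (median -3.72, sums of 24101 to 35378 and then 798 to 1044). Over all genes 12.8% were higher in this comparison. Macrophage genes rose in 8 of 10 (median 1.49, sums of 18611 to 24091 and then 44177 to 62534). Endothelial genes rose in 7 of 9 (median 1.19, sums of 20312 to 30792 and then 52725 to 65267), and stellate cell genes in 5 of 10 (median 1.13, sums of 12028 to 17493 and then 27605 to 43541). Of 9 B cell genes 2 fell (median -0.42, sums of 1063 to 1156 and then 721 to 1042). Of 9 hepatocyte genes 3 rose and 1 fell, but Alb, Ahsg and Fgb read at or near the top of the scale, where a change cannot be fully measured. The other 6 had a median of 0.39, with sums of 2132728 to 2347379 and then 2328351 to 2717247. The part of these cell types in the fall of the histone genes was not tested.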

How the data were processed

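Deposited values were intensities per transcript cluster for 18 Affymetrix Rat Transcriptome 1.0 arrays. RMA and Affymetrix Expression Console 1.0 are the tools named in the submitters' processing notes, with no order. The annotation release, genome build and any filter are not given in the sources used here. These intensities are on a linear scale between 4.24 and 999969, and the arrays had medians from 61.9 to 65.5. Of 24753 clusters, 19837 had 1 gene symbol and were used; 420 had several and 4496 none. The number of arrays limits the precision.

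From these values log2 was taken with no further normalization, and limma 3.58.1 (R 4.3.3) was fitted to 1 cluster per gene with age as the factor, 12 residual degrees of freedom, and Benjamini-Hochberg adjustment over all 18926 genes. The fit was tested on simulated data with known changes. Replicates are described as separate dams by the series design. The replicate numbers have no stated meaning. Deviations of same-numbered arrays from their age means correlated above 0.1 in all 3 pairs in 2 of 9 comparisons. These were 4 h against E21 (correlations of 0.107 to 0.292) and 12 h against 4 h (0.150 to 0.298), and a block on the replicate numbers changed no histone call there. At 7 days 2 pairs against 1 day and 1 pair against E21 were above 0.1, with highest correlations of 0.114 and 0.136.

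Histone members, classes and gene lists were chosen with earlier results of these data known. Values on every array are given for each somatic variant, for the brightest and the most changed replication-dependent gene of each family, and for up to 12 members by F test. Families follow the symbols, except Hist1h2ail1, which RefSeq names an H3 histone. Genes outside the histones are named from fixed lists, where a result turns on them. Alternatives were quantile normalization, a trended and robust prior, array weights, the mean of all clusters, a filter on low genes, log2(value + 16), the replicate block, and arrays left out. Promoters came from RefSeq (GRCr8).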

Additional observations from a re-analysis of the deposited data

How the results depend on the processing

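Under 9 alternatives, the number of replication-dependent histones that fell at 7 days ranged from 19 to 25 against E21 and from 20 to 26 against 1 day. The filter on low genes removes dim members such as H2bc12 and Hist1h2bc, so they could not be counted under it, whatever their change. In 18 fits with 1 array left out the counts ranged from 21 to 26 and from 23 to 26. Their median change against E21 ranged from -1.57 to -1.34 with 1 array left out and from -1.47 to -1.20 otherwise. With the replicate block the counts were 25 and 25, and the block changed no call of a named histone gene between ages, while 2 in place of 3 variants passed over all ages. With genes below the median level left out, the median of the somatic variants at 7 days against E21 moved from -0.19 to -0.46, since H1f10 dropped out by construction. With 1 array left out, variants lower against 1 day ranged from 1 to 4 and variants past the F test from 1 to 3, the lowest values coming without 7 days replicate 2. The change of H2az1 at 7 days against E21 ranged from -0.18 to 0.06 with 1 array left out, and turned to 0.06 without 7 days replicate 2 (limma adjusted p = 0.911). H3f3l1 gave -0.65 against E21 (adjusted p = 0.0535) when 3 arrays (replicate 1 of E21 and replicate 3 of 30 min and of 4 h) were all left out. In all, 1135 of 1153 values of named genes kept their direction and side of the threshold, 17 lost the call and 1 turned. Counts over all genes depended more on the setting: 274 to 2244 at 4 h against E21, with 892 as the main count, 46 to 1181 at 4 h against 30 min, where 186 passed, and 3228 to 4818 at 7 days against E21. Low intensities limit 9 replication-dependent genes at 7 days, whose fold is uncertain.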

Other observations

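Clusters with several gene symbols were kept out of the tests above, and 10 of them carry a histone symbol. They were then added to the fit, a setting chosen after the data were seen. With them, 9 of the 10 were lower at 7 days than at E21 with limma adjusted p under 0.05. In the main fit 10% of all genes were lower in this comparison. The cluster shared by H4f3 and H1f2 changed by -2.13 ± 0.31 (limma adjusted p = 0.000159, n = 3 per age). The cluster of Hist1h2ao and Hist1h4b changed by -2.01 ± 0.27 (limma adjusted p = 7.3e-05). The cluster of H2az2 and H2az2l3, which holds the second H2A.Z gene, changed by -0.54 ± 0.13 (limma adjusted p = 0.00817). The cluster of both H3.3 genes, H3f3b and H3f3a, changed by -0.73 ± 0.15 (limma adjusted p = 0.00186), while the cluster of H3f3b alone differed by 0.21. The exception was the cluster of H3f4 and Trim17, at -0.02 ± 0.09 (limma adjusted p = 0.909), with all readings between 4.80 and 5.08.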
